A study of Mus musculus with 35 samples.

Results

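The effect of treatment on messenger RNA was compared between mouse leukemia cells with and without a guide against Ogfod1. The quantity reported is the genotype by treatment interaction, meaning the change from vehicle to treatment in sgOgfod1 cells minus the same change in sgScramble cells, on a log2 scale. It uses every RNA library, 23 of the 35 libraries of the series, and the other 12 are ribosome footprint libraries. The cells were MLL-AF9 acute myeloid leukemia cells that express GFP. They came from 1 terminally ill mouse, were expanded in culture and were injected into male mice of 8 to 10 weeks. GFP-positive cells were sorted from crushed bones at the point of the largest response to chemotherapy, and each library came from 1 mouse.

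There were 4 groups, and all of them carried MLL-AF9 and a guide. Vehicle sgScramble (5 libraries) and vehicle sgOgfod1 (5 libraries) came from mice on the amino acid control diet that were injected with vehicle. Treated sgScramble (7 libraries) and treated sgOgfod1 (6 libraries) came from mice on a diet free of branched-chain amino acids that were also given the chemotherapy called 5+3. The regimen gives 5 daily doses of cytarabine (100 mg/kg), and the first 3 come with doxorubicin (3 mg/kg). Diet and drugs changed together in the treated groups, so their effects cannot be told apart. The guide is named by its target gene in the labels, and the number of guides or clones behind each genotype is not given in the sources used here.

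MLL-AF9 is a fusion of a chromatin regulator with a transcription elongation factor that drives an aggressive myeloid leukemia and keeps HoxA genes and Meis1 on. Ogfod1 is an oxygenase that hydroxylates a proline of the ribosomal protein Rps23 in the decoding centre of the small subunit. Leucine, isoleucine and valine feed the mTORC1 pathway, and their lack is sensed through uncharged transfer RNA by the kinase Gcn2 and the transcription factor Atf4. Cytarabine stalls DNA replication, and doxorubicin blocks topoisomerase II, so both activate p53 and arrest the cell cycle.

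Total counts ran from 31921768 to 142694163 per library, with a median of 56140065. The leukemia genes Hoxa9, Meis1 and Itgam had no interaction past the threshold and lay within 0.32 of 0 on the log2 scale, at -0.19, -0.32 and -0.14. Other leukemia markers lay further below 0, Mpo from -1.28 to -0.77 and Csf1r from -1.18 to -0.59 with 1 library left out. In the same fits Hoxa10 and Pbx3 stayed between -0.47 and -0.20, and Myb, Ctsg and Elane took both signs. A pair of libraries stood apart from the rest on the first principal component, treated sgScramble 4 at 251.7 and treated sgOgfod1 3 at 140.4. Libraries also carry a running number in the labels. All vehicle libraries were numbered up to 10. Treated sgScramble 1 and 2 and treated sgOgfod1 1 to 3 were numbered up to 15, and the other treated libraries were numbered from 17 up. The labels do not say what a number stands for, and several results differ between these ranges. Values given for a range use the treated libraries of that range and all vehicle libraries. Csf1r gave 0.42 with the treated libraries up to 15 and -2.02 with those from 17 up, and Mpo gave -1.59 and -0.75.

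Ogfod1 itself (ENSMUSG00000033009, GRCm38 chromosome 8, 94037198 to 94067921) was checked first. It stood at 24.9, 23.7, 19.7, 22.9 and 22.4 CPM (counts scaled to a common library size) in the vehicle sgScramble libraries. In vehicle sgOgfod1 it stood at 11.5, 10.6, 11.7, 8.57 and 11.7 CPM, below every vehicle sgScramble library. Treated sgScramble libraries ran from 12.3 to 31.6 CPM with a median of 22.2, and treated sgOgfod1 libraries from 3.75 to 13.0 with a median of 9.46. Under treatment the groups overlapped only through treated sgScramble 4 and treated sgOgfod1 2. The interaction of Ogfod1 was -0.18 ± 0.32 (SE, 95% interval -0.83 to 0.48, edgeR adjusted p = 1).

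No gene had an interaction past the threshold of an adjusted p under 0.05. edgeR's quasi-likelihood test called 0 of 21474 genes (0%), and the lowest adjusted p was 0.461. At an unadjusted p under 0.05 there were 975 genes, 359 above 0 (1.67% of all genes) and 616 below 0 (2.87%), a sum of 4.54% where 5% would be reached with no difference anywhere. limma voom also called 0 genes, with 2114 at an unadjusted p under 0.05, and DESeq2 called 19, of which 4 were above 0. The median interaction over all genes was -0.03, and 53.2% of genes lay below 0.

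**Figure D1:**
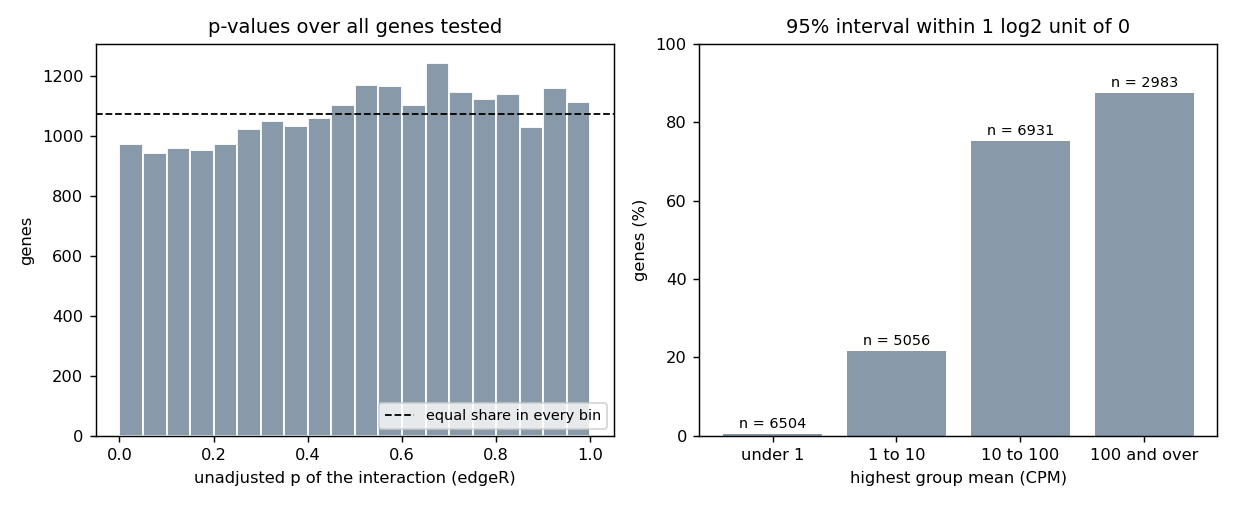
Left, number of genes in each of 20 bins of the unadjusted edgeR p of the interaction, with a dashed line where every bin would hold an equal share. Right, percent of genes whose 95% interval lay within 1 log2 unit of 0, by the highest group mean in CPM. The first bin holds 975 of 21474 genes, and the percent rises from 0.4 below 1 CPM to 87.5 from 100 CPM up.

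The absence of calls does not show that the treatment acted alike in both genotypes, and the intervals give the limit. The 95% interval lay within 1 log2 unit of 0, a 2-fold change either way, for 8952 genes (41.7%). That share was 75.3% of the 6931 genes with a highest group mean of 10 to 100 CPM and 87.5% of the 2983 genes from 100 CPM up. The median half-width of the interval was 0.53 and 0.46 in these classes, against 0.91 over all genes. The biological coefficient of variation between mice was 0.494.

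The effect of treatment passed the test for many genes. Treatment changed 2779 genes in sgScramble cells (12.9% of those tested) and 2120 in sgOgfod1 cells (9.87%), and 1245 passed in both. All 1245 moved in the same direction in both genotypes, and for 623 of them the 95% interval of the interaction lay within 1 log2 unit of 0. Another 1534 genes passed in sgScramble cells alone, and 1445 of these had the same sign in sgOgfod1 cells. Likewise 875 passed in sgOgfod1 cells alone, and 826 had the same sign in sgScramble cells. Passing in 1 genotype alone is no evidence of a difference, since the interaction of none of these genes passed its own test.

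**Figure D2:**
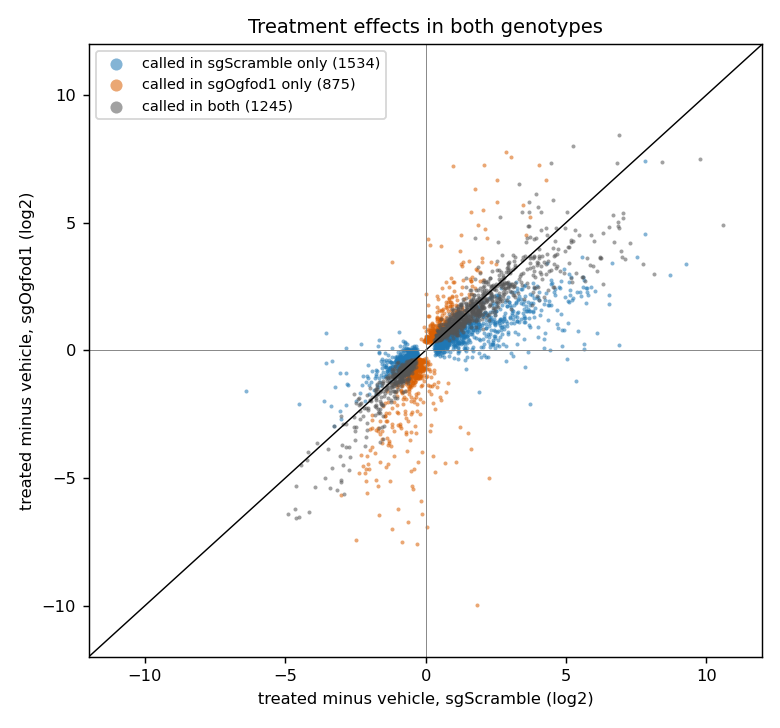
Effect of treatment in sgScramble cells (horizontal) and in sgOgfod1 cells (vertical), both as log2 fold changes, for genes past an edgeR adjusted p of 0.05 in either. Each point is a gene, and the diagonal marks equal effects. The 1245 genes called in both all have the same sign on both axes.

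Ribosomal and translation genes, the machinery that Ogfod1 modifies, had interactions close to 0 with all libraries. The 82 cytosolic ribosomal protein genes had a median of -0.05 between extremes of -0.28 and 0.17, and all 82 had an interval within 1 log2 unit of 0. None reached an unadjusted p under 0.05. Rps23, the substrate of Ogfod1, stood at -0.01 ± 0.23 (edgeR adjusted p = 1). The median was -0.07 over 38 translation initiation factors, -0.10 over 19 elongation and termination factors and -0.09 over 23 aminoacyl-tRNA synthetases, which charge transfer RNA. None of these genes reached an unadjusted p under 0.05. With the treated libraries up to 15 the synthetases gave -0.226 (5 below 0 at that p, 0 above), and from 17 up 0.075 (4 above, 0 below). Initiation factors gave -0.092 (7 below, 0 above) and -0.021 (2 above, 0 below). The 50 genes of ribosome biogenesis gave -0.08 in all, and -0.318 (14 below, 0 above) and 0.119 (2 above, 1 below) in the ranges. Over all genes 12.2% and 10.7% reached that p there. Among 13 oxygenases that act on the translation machinery and their partners and substrates, Ogfod1 and Rps23 included, the values ran from -0.18 to 0.11.

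The amino acid pathways that the diet touches also had medians near 0 with all libraries. The 25 genes of branched-chain amino acid breakdown had a median of -0.07, none reached an unadjusted p under 0.05, and 92% had an interval within 1 log2 unit of 0. The 38 genes of mTORC1 and amino acid sensing had a median of -0.05, with 4 below 0 at an unadjusted p under 0.05 (2.87% of all genes) and none above. The strongest was Fnip2, a partner of folliculin in nutrient signalling at the lysosome. Fnip2 stood at 7.05, 8.73, 7.51, 8.37 and 7.30 CPM in vehicle sgScramble and at 8.31, 10.3, 7.81, 5.82 and 8.53 in vehicle sgOgfod1, and these groups overlapped. In treated sgScramble it ran from 6.17 to 12.3 with a median of 9.30 CPM, and treated sgOgfod1 from 3.56 to 6.73 with a median of 3.94. Only treated sgScramble 4 fell into the range of treated sgOgfod1. The interaction was -1.08 ± 0.28 (edgeR adjusted p = 0.714), and it was -1.33 with the treated libraries numbered up to 15 alone and -0.85 with those from 17 up. In the lower range the list of Fnip2 gave -0.03, with 7 below 0 and 3 above at an unadjusted p under 0.05 (12.2% of all genes). In the upper range it gave -0.13, with 4 below and 2 above (10.7% of all genes). Mtor itself gave -1.28 and -0.21.

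Targets of Atf4 and the amino acid response gave a median of -0.03 over 38 genes, with 2 above 0 at an unadjusted p under 0.05 (1.67% of all genes) and none below. These were Trib3, a pseudokinase that Atf4 induces, and Pycr1, an enzyme of proline synthesis. Trib3 was low in vehicle cells, at 0.561, 1.24, 0.660, 0.293 and 0.438 CPM in sgScramble and 0.174, 0.0826, 0.175, 0.243 and 0.182 CPM in sgOgfod1. Every vehicle sgOgfod1 library lay below every vehicle sgScramble library, as for 1.69% of all genes. Treated libraries ran from 0.814 to 5.37 CPM in sgScramble (median 2.25) and from 1.25 to 10.7 in sgOgfod1 (median 2.53), and they overlapped. Treatment raised Trib3 in both genotypes, by 1.77 in sgScramble and by 4.41 in sgOgfod1 (edgeR adjusted p = 0.0371 and 0.000188). The interaction was 2.64 ± 0.79 (edgeR adjusted p = 0.812), with 3.12 and 2.88 in the ranges up to 15 and from 17 up. The interaction of Pycr1 was 0.92 ± 0.38 (edgeR adjusted p = 1), at 0.31 and 1.32 in the same ranges. The list of Atf4 targets gave 0.01 in the lower range, with 4 above 0 and 9 below at an unadjusted p under 0.05 (12.2% of all genes). In the upper range it gave 0.27, with 8 above and 1 below (10.7% of all genes).

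Single genes with the smallest p were read next, by a rule that takes protein-coding genes of at least 10 CPM in a group. None passed the adjusted threshold, so they are described and not called. Ehd4, which codes for a protein of endosomal recycling (GRCm38 chromosome 2, 120089175 to 120154606), had the smallest p of those below 0. It stood at 53.4, 57.6, 53.3, 57.6 and 58.3 CPM in vehicle sgScramble and at 82.4, 90.5, 96.5, 83.2 and 94.0 in vehicle sgOgfod1. These vehicle groups did not overlap, as for 2.41% of all genes in that direction. Treated sgScramble ran from 64.2 to 123 CPM (median 80.6) and treated sgOgfod1 from 67.4 to 80.6 (median 76.3), within the range of the former. Ehd4 thus rose by 0.64 in sgScramble cells (edgeR adjusted p = 0.00193) and stood at -0.25 in sgOgfod1 cells (adjusted p = 0.232). The interaction was -0.89 ± 0.18 (95% interval -1.27 to -0.51, edgeR adjusted p = 0.461).

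Vav2, a signalling protein of the VAV family on chromosome 2 (27262104 to 27427033), came next. Its vehicle levels were 8.53, 7.56, 9.27, 9.91 and 7.95 CPM in sgScramble and 11.2, 10.8, 10.1, 11.2 and 9.86 in sgOgfod1, and these groups overlapped at 1 pair of libraries. In treated sgScramble it ran from 5.80 to 12.9 CPM (median 9.64) and treated sgOgfod1 from 3.15 to 6.15 (median 5.42), and only treated sgScramble 4 lay within the lower range. Treatment lowered Vav2 in sgOgfod1 cells by 1.03 (edgeR adjusted p = 0.00187) and gave 0.18 in sgScramble cells (adjusted p = 0.615). The interaction was -1.21 ± 0.28 (edgeR adjusted p = 0.622). Footprints of Vav2 gave -0.08.

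Mogat2, an enzyme that joins an acyl chain to monoacylglycerol (chromosome 7, 99219084 to 99238619), had the smallest p above 0. It stood at 68.2, 82.9, 57.6, 56.8 and 70.7 CPM in vehicle sgScramble and at 48.7, 20.1, 39.7, 20.0 and 28.6 in vehicle sgOgfod1, with no overlap. Treated sgScramble ran from 17.1 to 47.7 CPM (median 35.3) and treated sgOgfod1 from 29.9 to 82.2 (median 53.1), with overlap. Mogat2 fell by 0.94 in sgScramble cells (edgeR adjusted p = 0.0195) and stood at 0.74 in sgOgfod1 cells (adjusted p = 0.0943). The interaction was 1.68 ± 0.38 (edgeR adjusted p = 0.622), and the footprints gave 1.96.

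**Figure D3:**
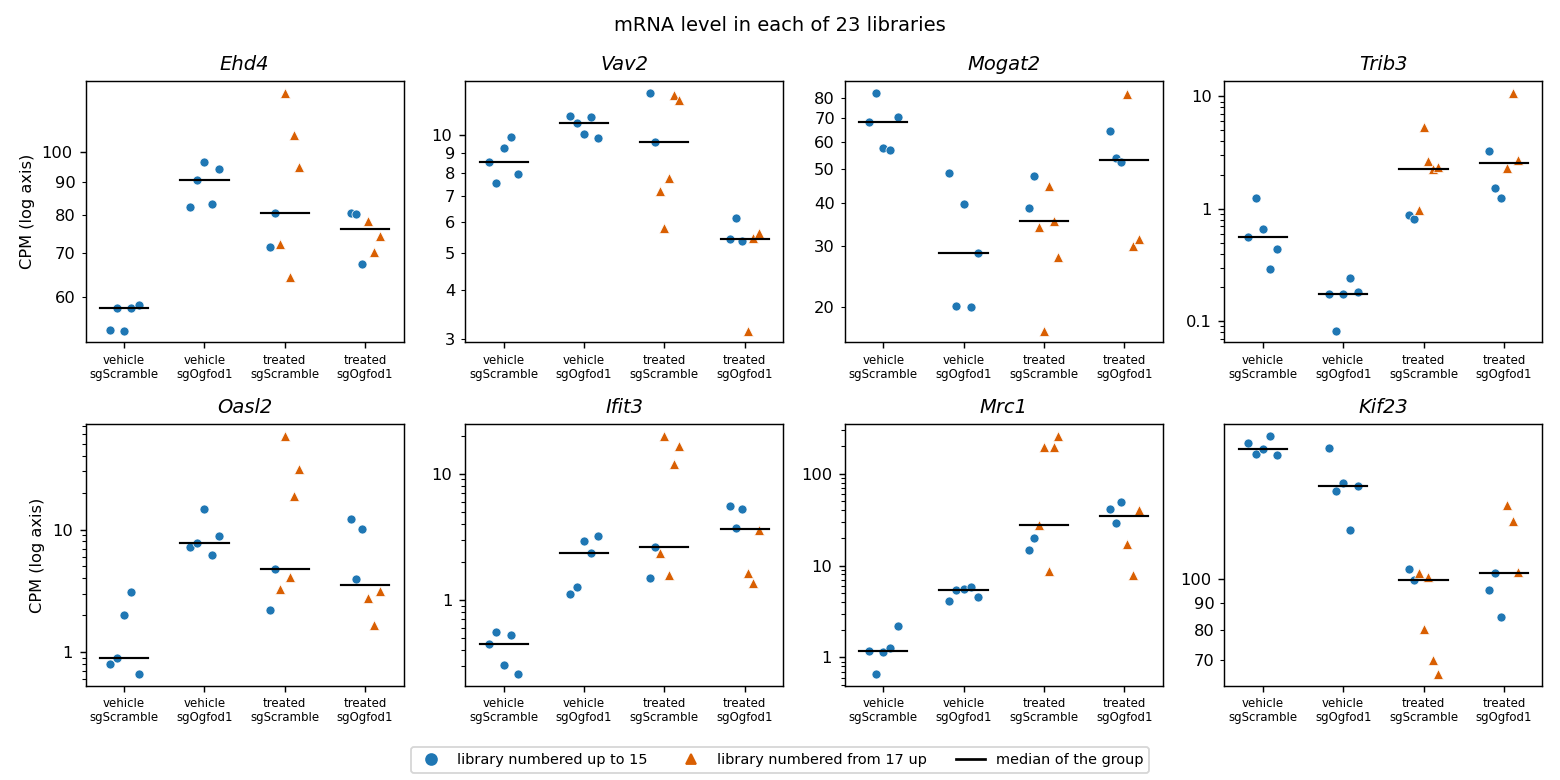
Level of 8 genes in each of the 23 RNA libraries, in CPM on log axes, by group. Circles are libraries numbered up to 15, triangles are those numbered from 17 up, and bars mark group medians. Ehd4, Vav2 and Mogat2 have both symbols mixed within the treated groups, while the highest values of Oasl2, Ifit3 and Mrc1 are triangles in treated sgScramble.

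The interaction of Ehd4, Vav2 and Mogat2 had the same sign in both ranges of library numbers. It was -0.69 and -0.96 for Ehd4, -1.32 and -1.23 for Vav2 and 1.47 and 1.70 for Mogat2, each time with the treated libraries up to 15 first. Leaving out any 1 library kept Ehd4 between -0.95 and -0.77, Vav2 between -1.29 and -1.10 and Mogat2 between 1.50 and 1.89. DESeq2 called all of these genes, with adjusted p = 0.0189 for Ehd4, 0.0402 for Vav2 and 0.0434 for Mogat2. The genes were picked by their p over these same libraries, and both ranges share the vehicle libraries. None of these values is therefore independent support for the interaction.

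Other genes named by the same rule with values below 0 were Rbfox2, a splicing regulator, at -1.21, Myo10, an unconventional myosin, at -1.33, Slc1a3, a glutamate transporter, at -1.63, and Steap3, an iron reductase, at -0.97. Slc1a3 and Steap3 fell in sgOgfod1 cells, by 1.32 and 1.08 (edgeR adjusted p = 0.00607 and 0.000578), with 0.30 and -0.12 in sgScramble cells (adjusted p = 0.545 and 0.724). Rbfox2 rose in both, by 2.05 in sgScramble and 0.83 in sgOgfod1 (edgeR adjusted p = 5.79e-06 and 0.0149). Its vehicle levels were 1.39, 2.40, 2.76, 2.18 and 1.82 CPM in sgScramble and 4.78, 5.32, 6.38, 5.26 and 7.28 in sgOgfod1, so the groups began apart. Genotype under vehicle was itself called for Rbfox2 (1.46, edgeR adjusted p = 0.00768) and for Ehd4 (0.67, adjusted p = 0.0494), as for 0.116% of all genes (0.0978% higher in sgOgfod1 and 0.0186% lower).

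Car2, carbonic anhydrase of red cells and other lineages, had a large interaction of -5.43 ± 1.26 that rested in part on 1 library. It stood between 0.162 and 0.498 CPM in vehicle sgScramble, between 1.85 and 5.53 in vehicle sgOgfod1 and between 3.64 and 7.91 in treated sgOgfod1. Treated sgScramble 4 held 121 CPM, and the other treated sgScramble libraries held 1.66 to 10.3. With 1 library left out the value reached -3.21 at the most.

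Above 0 stood Cenpl and Ndc80, both of the kinetochore, at 0.68 and 0.70, Prss16, a serine protease, at 1.08, and H1f0, a linker histone, at 0.98. Cenpl ran from 63.2 to 70.9 CPM in vehicle sgScramble and from 52.5 to 74.1 in vehicle sgOgfod1. In treated sgScramble it ran from 32.6 to 52.0 CPM with a median of 41.5, and treated sgOgfod1 from 51.8 to 71.3 with a median of 62.9. The treated groups overlapped at 1 pair of libraries. Cenpl fell by 0.65 in sgScramble cells (edgeR adjusted p = 0.000885) and stood at 0.03 in sgOgfod1 cells (adjusted p = 0.895). The rule also named Col4a1, a basement membrane collagen, at 2.06, Terf1, a telomere protein, at 0.56, Xlr4b at 1.69, and the zinc finger genes Zfp119a and Zfp959 at 1.05 and 0.85. Xlr4b held 29.3, 23.6 and 19.0 CPM in 3 treated sgOgfod1 libraries and 4.57 to 8.35 in the others, against 2.79 to 8.53 in treated sgScramble.

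Genes of mitosis lay mostly above 0. Of 65 tested, 61 had a positive interaction and the median was 0.34, against -0.03 over all genes. At an unadjusted p under 0.05 there were 11 above 0 (1.67% of all genes) and 0 below, and 0 passed the adjusted threshold. In sgScramble cells 37 of the 65 fell with treatment (4.34% of all genes fell there) and 1 rose, and in sgOgfod1 cells 1 fell (4.18% of all genes). Kif23, a motor of cell division, stood at 181, 173, 176, 187 and 172 CPM in vehicle sgScramble and at 177, 146, 152, 124 and 150 in vehicle sgOgfod1. Treated sgScramble ran from 66.0 to 104 CPM (median 99.3) and treated sgOgfod1 from 84.5 to 138 (median 103), with overlap. Kif23 fell in both, by 1.00 and 0.47 (edgeR adjusted p = 5.59e-05 and 0.0333), and its interaction was 0.53 ± 0.19 (adjusted p = 0.972).

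The mitosis result differed between the ranges of library numbers. With the treated libraries up to 15 alone the median of the list was -0.16, with 9 genes below 0 and 0 above at an unadjusted p under 0.05. With those from 17 up it was 0.69, with 50 above 0 and 1 below. Over all genes 12.2% and 10.7% reached that p in these fits. Ndc80, a subunit of the complex that ties kinetochores to microtubules, kept its sign, unlike the list median, at 0.31 in the lower range and 0.99 in the upper. It held 71.8 and 86.3 CPM in treated sgScramble 1 and 2 and 55.8 to 99.0 in treated sgScramble 3 to 7. It held 87.2, 89.6 and 97.6 CPM in treated sgOgfod1 1 to 3 and 136, 133 and 135 in treated sgOgfod1 4 to 6. Spc25, of the same complex, and Birc5, of the chromosomal passenger complex, gave 0.65 and 0.40, and their values were 0.36 and 0.19 in the lower range against 0.89 and 0.57 in the upper.

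Genes induced by interferon lay mostly below 0. Interferon acts through STAT and IRF factors that bind the interferon-stimulated response element, 2 copies of GAAA spaced by 2 bases in its core. Of 64 genes tested, 60 had a negative interaction, and the median was -0.86. At an unadjusted p under 0.05 there were 24 below 0 (2.87% of all genes) and 0 above, and 0 passed the adjusted threshold. Treatment raised 28 of the 64 in sgScramble cells (8.6% of all genes rose there), and in sgOgfod1 cells it raised 2 and lowered 1 (5.69% and 4.18% of all genes).

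This motif, GAAA followed by any 2 bases and again GAAA, was searched on both strands in the 250 bases before the start of each gene, in RefSeq sequences of GRCm38.p6. It was found for 23 of the 48 list members with a sequence there (47.9%), against 407 of 12278 tested genes (3.3%) and 2 of 55 mitosis genes (3.6%). A match is a description of letters and not a measured binding site. Sites of 3 members with values below 0 are shown, on the strand of the gene, with the motif in capitals, since these members moved together. The intervals are chr19:34583363-34583392 and chr19:34583397-34583426 for Ifit3 (plus strand), chr3:142620594-142620623 for Gbp2 (plus strand) and chr12:26456553-26456582 for Rsad2 (minus strand).
Ifit3 first site: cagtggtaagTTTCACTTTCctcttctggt
Ifit3 second site: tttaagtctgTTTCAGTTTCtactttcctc
Gbp2 site: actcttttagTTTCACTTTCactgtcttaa
Rsad2 site: ctggtccaacTTTCATTTTCagaaaacaga
The motif lies on the opposite strand in these sites. The interactions were -3.56 ± 0.87 for Ifit3, which codes for an antiviral RNA-binding adaptor, -3.29 ± 0.99 for Gbp2, a guanylate-binding GTPase, and -1.91 ± 0.60 for Rsad2, the antiviral enzyme viperin (edgeR adjusted p = 0.668, 0.812 and 0.878). Ifit3 has a near copy, Ifit3b, so its counts are uncertain.

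Some interferon genes already differed between the vehicle groups. Ifit3 stood at 0.443, 0.560, 0.303, 0.528 and 0.259 CPM in vehicle sgScramble and at 1.12, 1.27, 2.93, 2.34 and 3.23 in vehicle sgOgfod1, with no overlap. In treated sgScramble it ran from 1.49 to 19.8 CPM (median 2.61) and treated sgOgfod1 from 1.36 to 5.51 (median 3.64), with overlap. Ifit3 rose by 4.25 in sgScramble cells (edgeR adjusted p = 0.000386) and stood at 0.69 in sgOgfod1 cells (adjusted p = 0.503). In all, 11 of the 64 genes had every vehicle sgOgfod1 library above every vehicle sgScramble library (2.41% of all genes), and 0 had every one below (1.69%).

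Oasl2, an antiviral protein of the oligoadenylate synthetase family, also began apart. It stood at 0.797, 0.893, 2.02, 3.08 and 0.665 CPM in vehicle sgScramble and at 7.16, 7.79, 14.7, 6.18 and 8.87 in vehicle sgOgfod1. Treated sgScramble ran from 2.22 to 57.9 CPM (median 4.77) and treated sgOgfod1 from 1.68 to 12.2 (median 3.55). Treated sgScramble 4, 7 and 6 were the highest, at 57.9, 31.2 and 19.0 CPM. The interaction was -4.21 ± 1.02 (edgeR adjusted p = 0.668). Rtp4, a chaperone of receptors, and Ifi204, a DNA sensor, gave -3.14 and -3.17, and in Rtp4 the same libraries stood highest among treated sgScramble, at 139, 65.2 and 25.7 CPM. Footprints of Ifit3, Oasl2, Rtp4 and Ifi204 gave -3.31, -2.25, -2.08 and -2.04, from 12 of the same mice, and both treated sgOgfod1 footprint libraries are numbered from 17 up.

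The interferon list also differed between the ranges. Its median was -0.09 with the treated libraries up to 15, where 3 genes lay above 0 and 1 below at an unadjusted p under 0.05. It was -1.28 with those from 17 up, where 44 lay below 0 and 0 above. Among all genes, 12.2% and 10.7% reached that p in these fits. Oasl2, Ifit3, Rtp4 and Ifi204, which were named for their small p with all libraries, stayed below 0 in both ranges. Oasl2 gave -1.28 and -5.73, and Ifit3 gave -1.17 and -4.60. Rtp4 gave -0.82 and -4.08, and Ifi204 gave -0.77 and -4.17. None of them was the gene counted below 0 in the lower range. They do not stand for the whole list, since the 3 genes counted above 0 there had the other sign.

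Markers of resident macrophages also lay mostly below 0 with all libraries. All 23 listed markers had counts in every group, and 21 of the 22 tested had a negative interaction, with a median of -1.69. The summed level of the tested markers ran from 1039 to 1419 CPM in vehicle sgScramble (median 1242) and 821 to 1211 in vehicle sgOgfod1 (median 944). It ran from 1136 to 7714 in treated sgScramble (median 1622) and 1062 to 2910 in treated sgOgfod1 (median 1780). On these medians the rise of the summed level was not smaller in sgOgfod1, unlike the median over markers. C1qb, a subunit of complement C1q, held 568, 196 and 210 CPM in treated sgScramble 4, 6 and 7 and 15.1 to 22.8 in the other treated sgScramble libraries. It held 169 and 64.6 CPM in treated sgOgfod1 3 and 1 and 9.94 to 34.9 in the others, against 1.16 to 2.30 in vehicle sgScramble and 2.59 to 7.43 in vehicle sgOgfod1. In bulk libraries, fewer cells of a type and less RNA per cell cannot be told apart. The part of macrophage RNA in the interferon result was not tested. With a term for the summed log2 level of these markers the interferon median was -0.60, with 26 genes below 0 at an unadjusted p under 0.05 and 0 above (6.19% of all genes reached that p in this fit).

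That fit called 14 of 21474 genes, all below 0, where the fit without the term called 0. The term is drawn from the same libraries, and its markers themselves changed with treatment. The contrast in that fit is therefore not the interaction defined above, and its 14 calls are given as a description. Among them were Ehd4 at -0.83, Ifit3 at -2.82, Oasl2 at -3.29, Ifi204 at -2.34, Rtp4 at -2.44, Mrc1 at -2.83 and Axl at -2.22 (edgeR adjusted p = 0.00228 for Ehd4, Ifit3, Oasl2, Ifi204 and Axl, 0.0204 for Rtp4 and 0.00422 for Mrc1). Mrc1 and Axl belong to the marker list itself. Mrc1, the mannose receptor, stood at 0.665 to 2.17 CPM in vehicle sgScramble and 4.17 to 5.92 in vehicle sgOgfod1, with no overlap. In treated sgScramble it ran from 8.67 to 257 CPM (median 27.9) and treated sgOgfod1 from 7.82 to 49.3 (median 35.1). Without the term the interaction of Mrc1 was -3.72 ± 0.98 (edgeR adjusted p = 0.728), that of Axl, a receptor for dying cells, -3.14, that of the haemoglobin scavenger Cd163 -3.49 and that of the complement receptor Vsig4 -5.91.

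The sign of the macrophage list depended on the library numbers. Its median was 0.84 with the treated libraries up to 15, where 6 markers lay above 0 and 0 below at an unadjusted p under 0.05. With those from 17 up it was -3.50, where 19 lay below 0 and 0 above. That p was reached by 12.2% and 10.7% of all genes in these fits. Genes of monocyte maturation gave -0.74 in all, 0.60 in the lower range and -2.38 in the upper. Chemokines and their receptors gave -1.09, 0.82 and -2.43. Ccl7, Ccl8 and Cxcl12, chemokines for monocytes and for stem cells, had values of -4.36, -5.68 and -2.07, the receptor Ccr3 had -2.65, and the Fc receptor gene Fcgr1 had -3.12. In the lower range Ccl8, Ccr3, Cxcl12, Fcgr1 and C1qb lay above 0, at 0.12, 0.38, 0.17, 0.05 and 1.01.

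**Figure D4:**
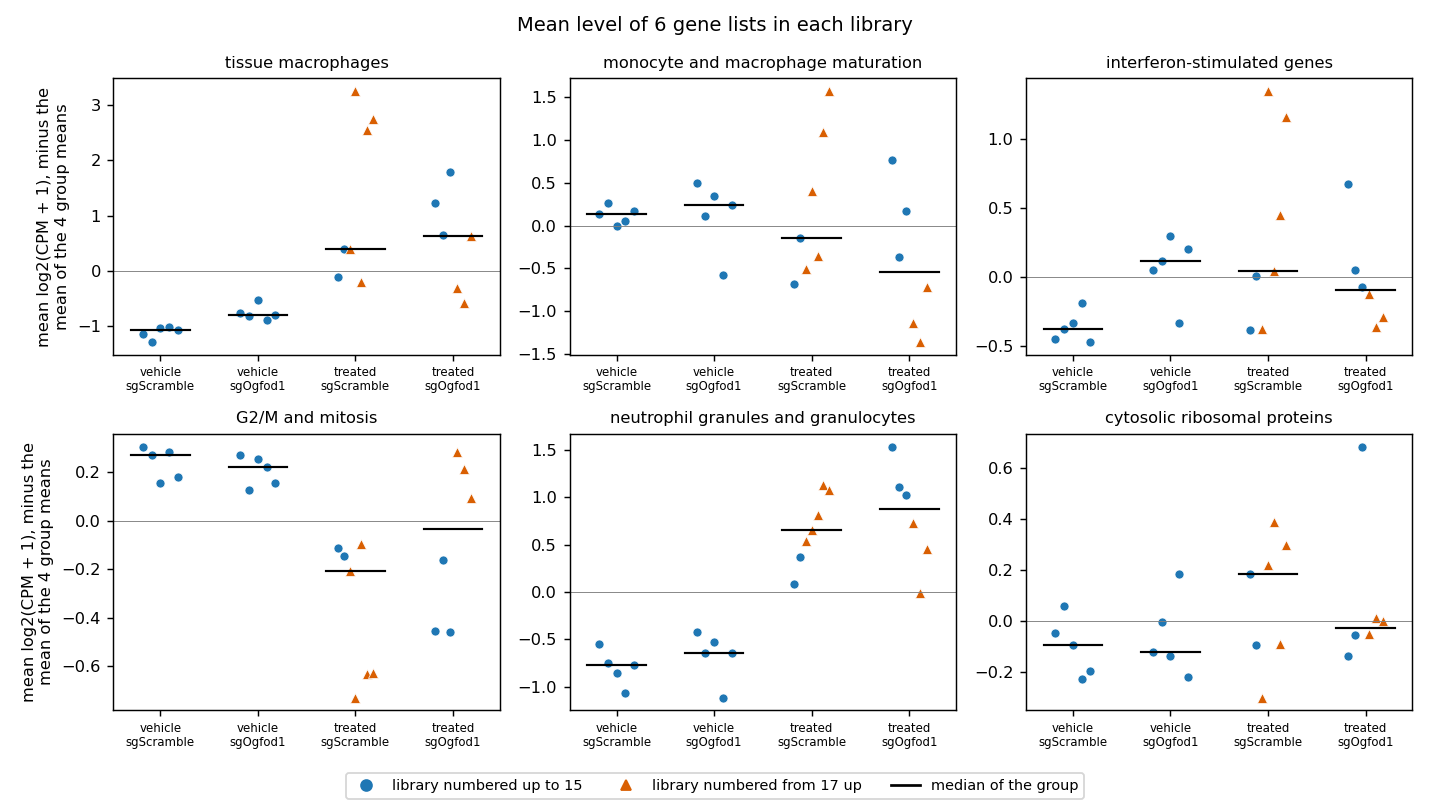
Mean log2(CPM + 1) of the tested members of 6 gene lists in each library, less the mean of the 4 group means. Circles are libraries numbered up to 15, triangles those from 17 up, and bars mark group medians. Treated sgScramble 4, 6 and 7 are the highest triangles for tissue macrophages (3.25, 2.55 and 2.75) and the lowest for mitosis (-0.73, -0.63 and -0.63).

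Neutrophil genes also had opposite signs in the ranges. The 40 genes had a median of 0.15, which ran from -0.02 without treated sgOgfod1 1 to 0.25 without treated sgOgfod1 5. It was 1.06 in the lower range (26 above 0 and 1 below at an unadjusted p under 0.05) and -0.56 in the upper (1 above and 13 below). The share of all genes at that p was 12.2% and 10.7% in the ranges. Treatment raised 28 of them in sgScramble cells and 29 in sgOgfod1 cells (8.6% and 5.69% of all genes). Olfm4, a granule protein of a subset of neutrophils, had 1.19, with 1.93 and 0.56 in the ranges, and Ltb4r1, the leukotriene B4 receptor, had 0.70, with 0.93 and 0.35. Others lay below 0. Wfdc21 had -1.19, with 0.93 and -1.80 in the ranges. Mmp8 ran from -2.02 to -1.22 with 1 library left out, with 0.04 and -3.06 in the ranges. Targets of p53 rose with treatment in both genotypes, 25 of 43 in sgScramble and 23 in sgOgfod1 (8.6% and 5.69% of all genes). Their median interaction was -0.16, from -0.24 without treated sgOgfod1 3 to 0.04 without treated sgScramble 4, and at 0.41 in the lower range and -0.60 in the upper. Among the BCL2 family, which controls mitochondrial cell death, Bak1 had -0.68 and Bcl2l1 -0.48.

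A test of the difference between the ranges was added after these values were seen. Treated libraries were split into groups of 2 (sgScramble) and 3 (sgOgfod1) up to 15, and of 5 and 3 from 17 up. The genotype difference in the upper range minus that in the lower was then tested in 1 model of all 23 libraries. The difference itself compares treated libraries only, and the vehicle libraries enter through the estimate of the spread. edgeR called 248 genes (1.15%), 79 higher (0.368%) and 169 lower (0.787%), and 3835 reached an unadjusted p under 0.05 (17.9%). The interaction had opposite signs in the ranges for 243 of the 248. These genes were picked for a large difference between the ranges, so opposite signs follow largely from that choice. The number of calls moved widely, from 0 to 977, when any 1 library was left out, and it was 0 in 15 of these 23 fits, 9 of which left out a vehicle library. An equal-weight mean of both ranges from this model called 0 genes as the interaction, with 1068 at an unadjusted p under 0.05 (4.97%). In the same model the interaction was called for 0 genes in the lower range (6.87% at an unadjusted p under 0.05) and for 9 in the upper, all below 0 (0.0419%, with 10.8% at an unadjusted p under 0.05).

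The calls included 10 of 34 genes of monocyte maturation, 11 of 40 of neutrophils and 7 of 37 of NF-kB and inflammation, all lower (0.787% of all genes). They also included 6 of 65 of mitosis, all higher (0.368% of all genes). The test was added because such lists differed between the ranges, so these counts restate that pattern. S100a11, a calcium-binding protein of the S100 family, shows the pattern. It held 273 and 340 CPM in treated sgScramble 1 and 2 and 340 to 560 in treated sgScramble 3 to 7. In treated sgOgfod1 it held 568, 436 and 464 CPM in libraries 1 to 3 and 282, 202 and 230 in libraries 4 to 6. The order of the genotypes thus turned round between the ranges, by -1.55 ± 0.25 (95% interval -2.07 to -1.04, edgeR adjusted p = 0.0458).

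Ckap2, a spindle protein, turned the other way. It held 45.8 and 44.5 CPM in treated sgScramble 1 and 2 and 31.2 to 46.8 in the others, with 29.2, 35.6 and 35.0 in treated sgOgfod1 1 to 3 and 62.7, 59.1 and 69.4 in libraries 4 to 6. Its difference was 1.19 ± 0.21, and that of Abce1, a ribosome recycling factor, was 0.79 ± 0.16. The chemokine Ccl3 gave -3.01, Tyrobp, a signalling adaptor of myeloid receptors, gave -1.62 and Slc11a1, a metal transporter of phagosomes, gave -3.98. All of these had an edgeR adjusted p of 0.0458.

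Some lists of other blood cells stood below 0 in both ranges. Genes of basophils, mast cells and eosinophils had a median of -1.99, with 10 of 19 below 0 and 1 above at an unadjusted p under 0.05 (2.87% and 1.67% of all genes), and -1.41 and -2.73 in the ranges. Epx, eosinophil peroxidase, stood at 5.02, 14.6, 5.55, 12.0 and 9.33 CPM in vehicle sgScramble and at 1.06, 23.8, 0.918, 31.99 and 4.97 in vehicle sgOgfod1. Treated sgScramble ran from 1.40 to 8.67 CPM (median 2.09) and treated sgOgfod1 from 0 to 1.17 (median 0.188), with no overlap, as for 0.21% of all genes. Epx fell by 5.11 in sgOgfod1 cells (edgeR adjusted p = 0.00223) and stood at -1.26 in sgScramble cells (adjusted p = 0.348), and its interaction was -3.85 ± 1.27 (adjusted p = 0.913). Il5ra, a chain of the interleukin 5 receptor, gave -5.47 ± 1.40, Ear1, an eosinophil ribonuclease, gave -4.22 and Prg3, a granule protein, gave -1.99. In vehicle sgOgfod1 the libraries 2 and 4 stood far above 1 and 3 in Epx, and without library 4 the median of the list was -1.17. The summed level of the tested members had a median of 748 CPM in vehicle sgScramble and 637 in treated sgScramble. In vehicle sgOgfod1 it was 439 CPM (range 285 to 1458), and in treated sgOgfod1 390. The summed level thus fell in both genotypes on these medians, while the list median counts every member alike, low ones included.

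Erythroid genes had a median of -1.87, with -0.85 and -1.88 in the ranges, and 4 of 21 lay below 0 at an unadjusted p under 0.05 (2.87% of all genes). Without treated sgScramble 4 the median was -1.16. Every vehicle sgOgfod1 library stood above every vehicle sgScramble library for 8 of them (2.41% of all genes). Red cells had been lysed before the sort. The summed level ran from 258 to 295 CPM in vehicle sgScramble and from 302 to 362 in vehicle sgOgfod1, with 279 to 457 in treated sgScramble and 263 to 399 in treated sgOgfod1. Gata1, the transcription factor of red cells, megakaryocytes and eosinophils, had -3.11, Car1 had -5.38 and the beta globin gene Hbb-bt, which shares reads with its copies, had -3.30. Car1 stood at -9.56 without vehicle sgScramble 3 and at -2.87 without treated sgScramble 4, and Hbb-bt at -1.17 without treated sgScramble 5. B and plasma cell genes had a median of -1.01 with 9 of 24 below 0 at an unadjusted p under 0.05 (2.87% of all genes). It was -0.42 without vehicle sgOgfod1 2, -0.61 without treated sgScramble 6 and -1.66 without treated sgOgfod1 5. In all 17 lay below 0 and 7 above. Members below 0 were Ebf1 at -4.77, a factor of early B cells, Sdc1 at -3.14, Cd79a at -1.82, a chain of the B cell receptor, and Bank1 at -0.87. Ebf1, Sdc1 and Cd79a held no more than 3.96 CPM in any library. Cd79b ran from 0.15 to 0.48 with 1 library left out, with 0.81 and -0.17 in the ranges. The summed level ran from 371 to 751 CPM in treated sgScramble (median 535) and from 544 to 871 in treated sgOgfod1 (median 625). It ran from 468 to 547 in vehicle sgScramble and from 421 to 594 in vehicle sgOgfod1. The part of such cells in the sort was not tested.

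**Figure D5:**
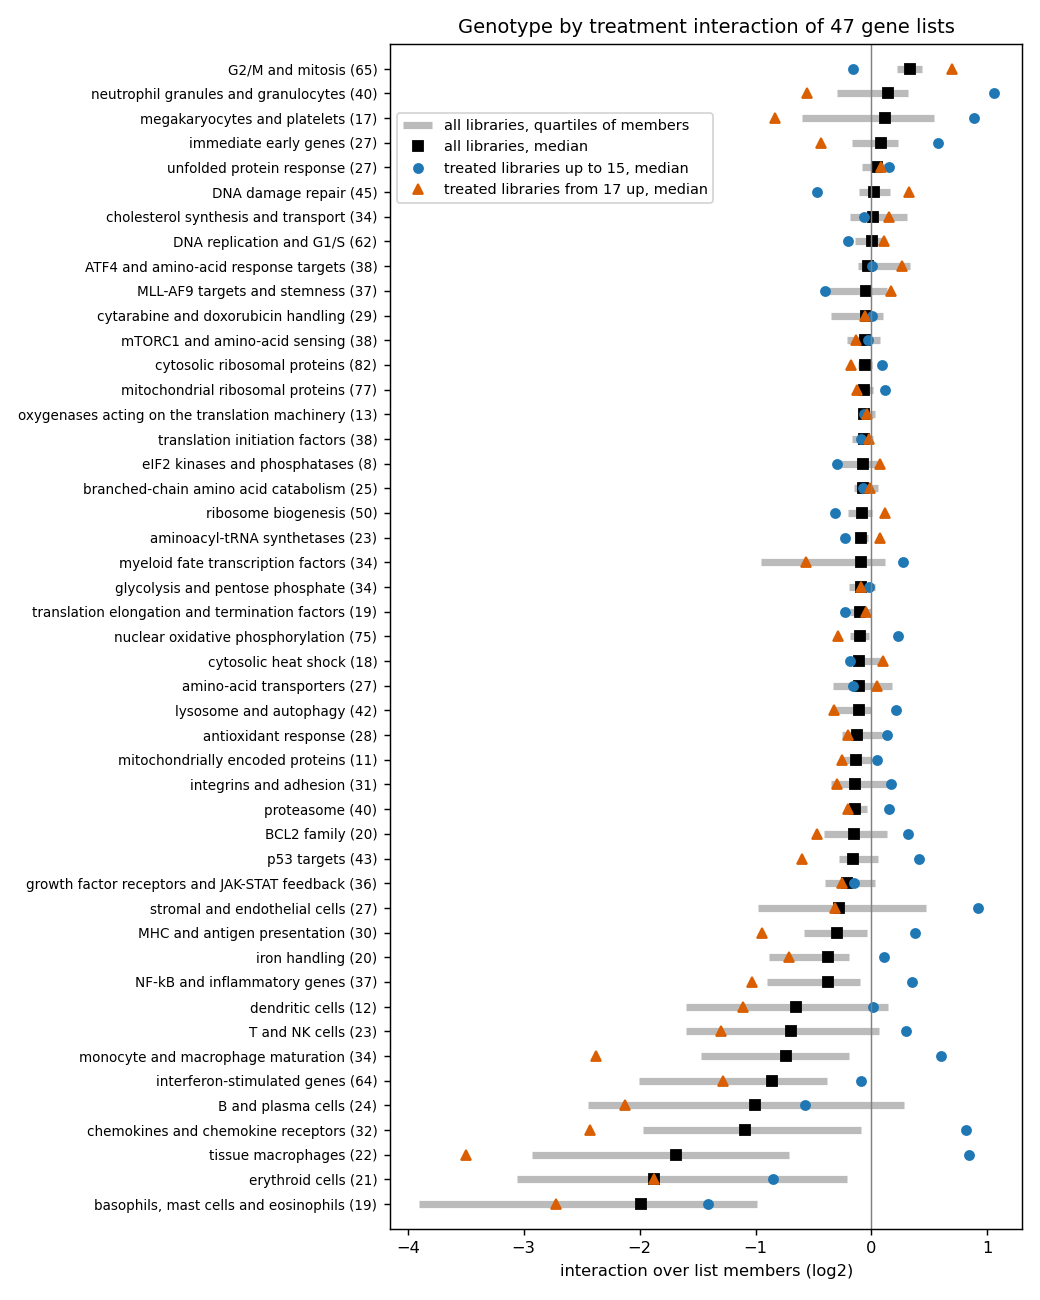
Interaction over the tested members of 47 gene lists, on a log2 scale, with the number tested in brackets. Black squares and grey bars are the median and quartiles with all libraries, blue circles the median with treated libraries numbered up to 15 and orange triangles that with those from 17 up. Circles and triangles lie on opposite sides of 0 for tissue macrophages (0.84 and -3.50) and for mitosis (-0.16 and 0.69), and close together for branched-chain amino acid breakdown.

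Few other genes stood out among the remaining lists with all libraries. Hoxa11, of the HoxA cluster, was above 0 at 1.65 ± 0.75 and at 0.81 without vehicle sgScramble 3. It was higher in treated sgOgfod1 (5.29 to 35.5 CPM) than in treated sgScramble (0.653 to 1.59 CPM) with no overlap, as for 0.265% of all genes. Its genotype difference under treatment was 3.98 (edgeR adjusted p = 0.000531), and under vehicle it was 2.33 (adjusted p = 0.179). Under treatment that difference was called for 0.391% of all genes, 0.265% higher and 0.126% lower. The list of MLL-AF9 targets and stemness, which holds Hoxa11, had a median interaction of -0.04. In the lower range it was -0.40, with 13 of 36 below 0 and 2 above at an unadjusted p under 0.05 (12.2% of all genes). In the upper range it was 0.17, with 1 below and 0 above (10.7% of all genes). Zfp521, a corepressor, had -7.59 at very low levels. Of DNA repair and replication genes, Ercc2, a helicase of nucleotide excision repair, had -0.95, and Pole, the catalytic subunit of a replicative polymerase, had -0.50. The median was 0.02 over 45 repair genes and 0.004 over 62 replication genes. In the lower range these were -0.47 and -0.20, with 16 below 0 in each and 1 and 2 above at an unadjusted p under 0.05. In the upper range they were 0.32 and 0.11, with 10 and 8 above and 1 below in each. Over all genes 12.2% and 10.7% reached that p in the ranges. Among carriers and drug handling genes, Slc7a2 had -1.69, Slc19a2 0.40 and Abcb1a, the efflux pump P-glycoprotein, -3.44 at low levels. The T cell gene Icos had -4.08, also at low levels.

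The interaction leaned slightly lower for long genes. Over 12071 protein-coding genes of at least 1 CPM in a group, the rank correlation across genes with coding length was -0.097. The median interaction was -0.03 in the shortest of 10 length classes and -0.15 in the longest. Genes are not independent replicates, and this is given as a description.

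Ribosome footprints gave a second readout from 12 of the same mice, with only 2 in treated sgOgfod1. Those are numbered 22 and 24, while the treated sgScramble ones are numbered 11, 12, 17 and 19, so genotype under treatment and library number cannot be fully told apart in footprints. The same interaction was called for 12 of 18290 genes (0.0656%), 1 higher (0.00547%) and 11 lower (0.0601%), and 10 of the 12 were also tested in RNA, where none was called. At an unadjusted p under 0.05 it was 9.29% of genes, 4.34% higher and 4.95% lower. Ahnak, a giant scaffold protein, held 43.98, 36.5 and 37.2 footprint CPM in vehicle sgScramble and 168, 110 and 117 in vehicle sgOgfod1. It held 35.5, 47.6, 51.5 and 33.1 in treated sgScramble and 16.3 and 12.9 in treated sgOgfod1. The footprint interaction of Ahnak was -3.27 ± 0.30 (edgeR adjusted p = 0.000734), and its RNA gave -1.37 ± 0.92 (adjusted p = 1). Tgm1, a transglutaminase, had 1.19 ± 0.19 in footprints (edgeR adjusted p = 0.0221) and 0.50 ± 0.25 in RNA. Hmgb1, a chromatin protein, had -1.26 ± 0.21 in footprints (edgeR adjusted p = 0.0328) and -0.06 ± 0.16 in RNA. The other 9 were processed pseudogenes called lower together with Hmgb1, and footprints are short enough to be shared between such copies, so these counts are uncertain.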

How the data were processed

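The deposited files hold raw counts per Ensembl gene, 1 column per library, for 23 RNA and 12 footprint libraries. The authors' processing notes name cutadapt, Bowtie2, STAR, SAMtools, featureCounts and GRCm38/mm10, without versions or roles, and the treatment of strand and multi-mapped reads is not given in the sources used here. RNA was made by Smart-seq2 from lysate, per the labels' protocols, a method that marks neither strand nor molecules.

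Of 55487 genes, 21474 passed edgeR's filterByExpr. Counts were scaled by TMM and fitted with edgeR 4.0.16 (glmQLFit, robust, R 4.3.3) as 4 groups, with Benjamini-Hochberg adjustment over all genes tested. Alternatives used DESeq2 1.42.0, limma 3.58.1 voom, other filters and scaling, a replicate block, a term for library number, and each library left out. Only the edgeR test of the RNA interaction was tried on simulated counts. Libraries of a group differed by more than counting noise (smallest chi-square per degree of freedom 19.6 over 56 pairs), so none was counted as a repeat. Footprint columns were matched to samples by library number.

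The named genes are Ogfod1, up to 4 members of each list by smallest p, and in each direction 10 protein-coding genes of at least 10 CPM. The latter had to pass the threshold, and since none did, those with the smallest p were taken. Gbp2, Rsad2, Rps23, C1qb, Cd79b and the leukemia markers Hoxa9, Hoxa10, Meis1, Pbx3, Myb, Mpo, Ctsg, Elane, Itgam and Csf1r were added after their values were seen. So were the genes of the comparison between number ranges. The 47 lists, 1641 members in all, and the comparison itself were chosen with earlier results of these data known. P-values measure the spread between mice.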

Additional observations from a re-analysis of the deposited data

Results flagged for a closer look

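Among the genes followed, 21 of 255 groups of libraries (8.2%) held a library far from the others of its group, where chance gives about 5%. Treated sgScramble 4 was that library 6 times. It was high in Car2 (121 CPM), Car1 (3.80), Sdc1 (3.96) and Zfp521 (4.44), and low in Prss16 (21.1) and Col4a1 (2.62). Treated sgOgfod1 3 was low in Ogfod1 (3.75 CPM) and Pole (50.2). Other treated sgOgfod1 libraries stood apart in Vav2 (3.15 CPM, library 4), Steap3 (8.89, library 5), Col4a1 (23.1, library 2), Abcb1a (0.0984, library 2), Icos (0.0657, library 5) and Rsad2 (7.46, library 1). Treated sgScramble 5 was high in Hbb-bt at 0.566 CPM. Among vehicle sgScramble libraries, library 3 was high in Car1 (0.178 CPM) and Zfp521 (0.571) and library 2 was low in C1qb (1.16). Among vehicle sgOgfod1 libraries, library 4 was low in Col4a1 (2.26 CPM) and high in Rps23 (124), and library 1 was low in Ercc2 (7.81).

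The effect of treatment on footprints differed between the genotypes by edgeR's test of the interaction for 12 genes. The log2 difference was -3.27 for Ahnak, 1.19 for Tgm1 and -1.26 for Hmgb1. It was -1.49 for Gm38574, -1.42 for Gm13577, -1.42 for Hmgb1-ps9, -1.33 for Gm8319, -1.34 for Gm15387, -1.34 for Hmgb1-ps7, -1.31 for Gm21596, -1.35 for Gm5518 and -1.25 for Hmgb1-ps1, which are processed pseudogenes.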

How the results depend on the processing

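With any 1 library left out, edgeR called 0 to 0 genes for the RNA interaction, with 778 to 1422 at an unadjusted p under 0.05, and Ogfod1 stayed between -0.302 and -0.001. Calls rose from 0 to 19 with DESeq2, 3 with treated libraries numbered up to 15 alone, 6 with those from 17 up and 14 with the macrophage term. The count at an unadjusted p under 0.05 moved from 975 to 2779 with no filter, 2114 with voom, 1698 without the 2 libraries that stood apart, 2969 with numbers up to 15 and 2523 from 17 up. Footprint calls moved from 12 to 260 with no filter, 54 with DESeq2 and 57 with the replicate block, and ran from 1 to 93 with 1 library left out. The difference between ranges, 248 calls, gave 0 with no filter, 584 with the stricter filter, 1532 with DESeq2, 1708 with voom, 1004 without the 2 libraries that stood apart, 504 among protein-coding genes and 0 to 977 with 1 library left out. The cause of these moves was not tested.

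With the replicate block the RNA interaction had 0 calls and 753 genes at an unadjusted p under 0.05. The numbers do not pair the samples, since 31 same-numbered pairs had a median correlation of -0.033, with 7 over 0.1, against 0.019 over 166 other pairs. Over 64 genes followed, 738 of 762 values under the other settings kept their direction and call, 13 passed the threshold and 11 changed sign. With numbers up to 15 these were Ccl8 (0.12), Ccr3 (0.38), Cxcl12 (0.17), Fcgr1 (0.0498), C1qb (1.01) and Rps23 (0.12). Rps23, at -0.01, also gave 0.0178 with DESeq2 and with its size factors, 0.0287 with the stricter filter, 0.0272 with the replicate block and 0.0312 among protein-coding genes. With 1 library left out it ran from -0.134 to 0.0958 and gave the 13 changes of sign among 1468 values.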
